A study of Oryza sativa with 58 samples.

Results

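Root expression of Nip, a Geng (Japonica) rice, was compared with root expression of MH63 and ZS97, both Xian (Indica) rice, by RNA-Seq. The libraries were chosen by their tissue and variety labels alone, which gave 6 root libraries of the 58 in the series, 2 of Nip (Nipponbare, spelled Nipponare in the labels), 2 of MH63 (Minghui 63) and 2 of ZS97 (ZhenShan97). MH63 and ZS97 are the parents of an elite hybrid, and Nip is the variety of the rice reference genome. None of the plants carried a transgene or received a treatment by the labels. All roots were 1 week old and were taken 7 days after planting on moist filter paper, in a phytotron with 14 h of light at 32 °C and 10 h of dark at 28 °C. Young leaf, panicle and mature leaf of the same 3 varieties add 6 libraries each and are used to show how far a root difference extends. With Nip as the only Geng variety and 2 Xian varieties, a difference between subspecies cannot be told apart from a difference of Nip alone.

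Geng and Xian are the main subspecies of Asian cultivated rice. They diverged long before modern breeding, and their genomes differ in single bases and in whole genes, many of them resistance-like genes or transposable elements that are present in one variety and missing or altered in another. The root anchors the seedling, takes up water and mineral nutrients and meets soil microbes, and it uses many genes that the shoot hardly uses. Expression values of all 3 varieties were given for MH63 gene models, so a Nip gene was measured as far as its reads matched the MH63 copy. The identifiers carry no gene names here, so genes are given by identifier, and no function is assigned to them.

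The values were FPKM, which are scaled to gene length and library size, and 57174 genes were listed. Between 17631 and 19130 genes were above 1 FPKM in a root library, and the fewest were in Nip. The depth of the root libraries, estimated from the steps between low values and set to 1 for MH63 replicate 1, ranged from 0.667 to 1.385 and was lowest in both Nip libraries (0.667 and 0.693). Across genes, the Pearson correlation of log2(FPKM + 1) was between 0.992 and 0.993 for libraries of 1 variety, between 0.966 and 0.972 for MH63 with ZS97, between 0.948 and 0.950 for Nip with ZS97 and between 0.940 and 0.943 for Nip with MH63. No root library correlated above 0.865 with a library of another tissue, so the libraries grouped with their tissue label. Leaf material was looked for with 7 genes that stood at or above 100 FPKM in all 12 leaf libraries and at or below 2 FPKM in every panicle library. Their summed FPKM was 8.63 and 17.6 in Nip root, 66.2 and 70.7 in MH63 root and 18.9 and 18.4 in ZS97 root, against 2540 to 63800 in leaf libraries, and 2 of the 7 genes were listed at 0 in all root libraries. Another 2 of these leaf genes, MH01g0805800 and MH03g0288200, were lower in Nip root by the test used below (log2 differences of -1.84 and -1.53), and the part of leaf material in other differences was not tested. By the numbering of the value columns, the Nip root libraries may come from another joint run of the quantification than those of MH63 and ZS97. This is read from the numbering alone. If so, the scaling of that run and the variety cannot be told apart.

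Of 20811 genes whose mean exceeded 1 FPKM in 1 variety or more, 1922 (9.24%) differed between Nip and the mean of the Xian parents in root. Of these, 583 (2.80%) were higher in Nip and 1339 (6.43%) were lower. A gene was called at an adjusted p below 0.05 (limma, Benjamini-Hochberg over all genes tested) and a difference above 1.5 in either direction, and all differences are given as Nip minus Xian on the log2(FPKM + 1) scale, which understates changes of low genes. No label says that the 2 replicates of a variety came from separate plants, so these p-values measure the spread between libraries, which may be technical. The median difference over all genes tested was -0.17, and scaling the libraries to each other moved it to -0.03 (median of ratios) or 0.01 (quantile normalization). With this shift removed, the split moved from 583 higher and 1339 lower genes to 707 and 1173 by the median of ratios and to 778 and 1035 by quantile normalization. More genes were lower than higher in Nip under each of the 3 scalings, whereas the size of that excess depended on the scaling. All 583 genes higher in Nip were still called higher by the median of ratios and 575 by quantile normalization, against 1173 and 1031 of the 1339 lower ones. All values were given for MH63 gene models, and the part of unmatched Nip reads in the excess of lower genes was not tested. ZS97, compared with MH63 in the same way, was also lower for more genes (631) than it was higher (300).

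**Figure D1:**
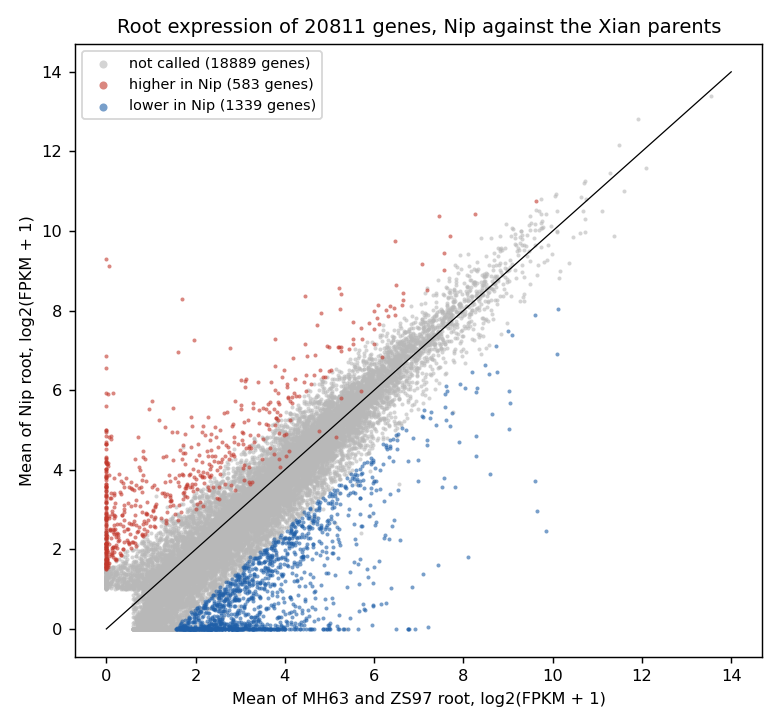
Mean root expression of Nip (vertical axis) against the mean of MH63 and ZS97 (horizontal axis), both in log2(FPKM + 1), with 1 point for each of the 20811 genes tested and the line of equal values. Red points are the 583 genes called higher in Nip and blue points the 1339 genes called lower. Points along the left edge and the bottom edge are genes listed at or near 0 in the Xian parents or in Nip.

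The differences called were large on the whole. Their median was 2.09 for genes higher in Nip and -2.06 for genes lower in Nip. A difference beyond 3 in either direction was reached by 346 genes, 218 of them lower in Nip, and a difference beyond 5 by 11 genes higher and 19 genes lower in Nip. In the group where they were higher, the called genes had a median of 11.6 FPKM (higher in Nip) and 9.07 FPKM (lower in Nip), and in the other group a median of 1.06 and 0.555 FPKM. Both Nip libraries stood above all 4 Xian libraries for 557 of the 583 genes higher in Nip, an order that 22% of all genes tested had, and below all 4 for 1209 of the 1339 lower genes, an order that 37.3% of all genes tested had.

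Among genes above 0.1 FPKM in all 6 libraries, the largest positive differences were in 5 genes that were strongly expressed in Nip and far lower in both Xian parents. MH04g0625400 was at 308 and 320.4 FPKM in Nip, 1.18 and 1.88 FPKM in MH63 and 2.74 and 3.10 FPKM in ZS97. The mean FPKM of Nip was 141-fold that of the Xian parents, and the difference was 6.65 ± 0.13 (SE, 2 Nip and 4 Xian libraries; adjusted p = 4.58e-06, limma). Both Nip libraries were more than 2 orders of magnitude above the MH63 libraries, and the parents were close to each other. MH06g0167700 was at 118 and 129 FPKM in Nip, 1.51 and 0.793 FPKM in MH63 and 2.81 and 3.03 FPKM in ZS97 (difference 5.43 ± 0.15, adjusted p = 8.46e-06, limma). MH08g0066700 was at 151.04 and 151.59 FPKM in Nip, 2.47 and 2.31 FPKM in MH63 and 3.82 and 3.04 FPKM in ZS97 (difference 5.30 ± 0.09, adjusted p = 3.60e-06, limma). Both genes had Nip replicates close together and no Xian library near them. MH11g0183700, at 54.1 and 50.0 FPKM in Nip, was between 0.735 and 1.64 FPKM in the 4 Xian libraries (difference 4.73 ± 0.14, adjusted p = 9.75e-06, limma). MH01g0727600, at 134 and 133 FPKM in Nip, was at 4.30 and 4.32 FPKM in MH63 and 6.60 and 8.11 FPKM in ZS97 (difference 4.34 ± 0.09, adjusted p = 5.25e-06, limma). The last gene kept a low but measurable level in both Xian parents.

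In the opposite direction, 5 genes that were strongly expressed in the roots of both Xian parents were far lower in Nip. MH12g0112000 was at 3.70 and 5.24 FPKM in Nip, 1095 and 1021 FPKM in MH63 and 752 and 799 FPKM in ZS97. The Xian mean was 205-fold the Nip mean, and the difference was -7.39 ± 0.12 (SE, adjusted p = 3.60e-06, limma). The gene was thus among the highly expressed root genes of MH63 and ZS97 and a minor one in Nip. MH05g0126600 was at 11.4 and 12.8 FPKM in Nip, 1036 and 982 FPKM in MH63 and 535 and 575 FPKM in ZS97 (difference -5.84 ± 0.07, adjusted p = 2.24e-06, limma). MH05g0096600 was at 2.30 and 2.71 FPKM in Nip, 229 and 279 FPKM in MH63 and 293.6 and 302 FPKM in ZS97 (difference -6.30 ± 0.10, adjusted p = 3.60e-06, limma). Of these, MH05g0126600 was higher in MH63 than in ZS97 and MH05g0096600 was about level between them. MH07g0397700 was at 2.03 and 2.07 FPKM in Nip, 155 and 122 FPKM in MH63 and 199 and 207 FPKM in ZS97 (difference -5.79 ± 0.10, adjusted p = 3.60e-06, limma). MH08g0445400 was at 0.311 and 0.830 FPKM in Nip, 71.6 and 74.1 FPKM in MH63 and 82.9 and 76.0 FPKM in ZS97 (difference -5.64 ± 0.14, adjusted p = 7.24e-06, limma). For none of these genes did a Nip library come within an order of magnitude of a Xian library.

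A further set of genes was listed at 0 in every root library of Nip, or in every root library of the Xian parents. An exact 0 in FPKM can be a failed estimate, so these genes are described as listed at 0, no fold is given, and their differences depend on the pseudocount. In root, 206 genes were listed at 0 in both Nip libraries and above 1 FPKM in all 4 Xian libraries, 19 of them above 10 FPKM. The opposite pattern, 0 in all 4 Xian libraries and above 1 FPKM in both Nip libraries, held for 155 genes, 33 of them above 10 FPKM. Within the Xian parents, 94 genes were listed at 0 in ZS97 and above 1 FPKM in MH63 and Nip, and 19 were listed at 0 in MH63 and above 1 FPKM in ZS97 and Nip. Of the 206 genes, 119 were listed at 0 in all 8 Nip libraries of the 4 tissues and 51 were above 1 FPKM in a Nip library of another tissue. Of the 155 genes, 104 were listed at 0 in all 16 Xian libraries and 22 were above 1 FPKM in a Xian library of another tissue. Most genes of either pattern were therefore at 0 beyond the root as well. Reads that did not match the MH63 gene would be missing from a Nip value, and their part in the 206 genes was not tested. The 155 genes have MH63 gene models, and both MH63 root libraries were at 0 for each of them.

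The most abundant genes of this kind in Nip were MH02g0673700, at 641 and 608 FPKM, MH03g0104700, at 127 and 102 FPKM, MH05g0318200, at 81.7 and 105.4 FPKM, and MH04g0543600, at 80.1 and 40.5 FPKM. All 4 Xian root libraries were at 0 for each of them. The differences were 9.29 ± 0.08, 6.84 ± 0.12, 6.55 ± 0.13 and 5.86 ± 0.26 (SE, adjusted p between 1.08e-06 and 3.33e-05, limma). The Nip replicates were close except for MH04g0543600. MH03g0104700 was at 0 in all 16 Xian libraries and at 96.8 and 309 FPKM in young leaf, 892 and 422 FPKM in panicle and 201 and 226 FPKM in mature leaf of Nip. Some of the other genes were unsteady elsewhere. MH02g0673700 was listed at 3785 and 0 FPKM in the Nip young leaf libraries, while the Xian libraries held it at 343 to 2165 FPKM in young leaf and 382 to 3214 FPKM in mature leaf. Its differences there were -3.93 and -1.70, opposite in sign to root and not called, so the gene was not missing from the Xian parents. In panicle MH02g0673700 was called higher in Nip, as in root (difference 6.03, adjusted p = 0.00409, limma). It was there at 1214 and 4887 FPKM in Nip, 1963 and 998 FPKM in MH63 and 0 in both ZS97 libraries. MH04g0543600 was listed at 0 and 814 FPKM in the Nip panicle libraries. A gene outside the naming rule, MH10g0421500, was chosen after its values were seen because its difference was second only to that of MH02g0673700. It stood at 529 and 583 FPKM in Nip root, 0.140 and 0 FPKM in MH63 root and 0 in ZS97 root (difference 9.07 ± 0.10, adjusted p = 2.2e-06, limma), and no Nip library of another tissue was above 7.79 FPKM. Of these 5 genes, it was the one with its signal mostly in root.

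Among genes listed at 0 in both Nip root libraries, MH05g0422100 was at 233 and 112 FPKM in MH63 and 82.4 and 51.7 FPKM in ZS97 (difference -6.70 ± 0.32, adjusted p = 3.97e-05, limma). MH06g0510100 was at 109 and 124 FPKM in MH63 and 121 and 71.6 FPKM in ZS97 (difference -6.72 ± 0.21, adjusted p = 1.02e-05, limma). MH12g0367500 was at 47.2 and 46.9 FPKM in MH63 and 35.2 and 38.1 FPKM in ZS97 (difference -5.41 ± 0.07, adjusted p = 2.75e-06, limma). These 3 genes were expressed in both Xian parents. MH06g0537400 was not, since it was at 185 and 245 FPKM in MH63 and 0.0549 and 0.0535 FPKM in ZS97. Its difference of -3.91 ± 0.13 between Nip and the Xian mean (adjusted p = 1.41e-05, limma) came from MH63, and with the 4 Xian libraries as 1 group the adjusted p was 0.30 (limma).

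**Figure D2:**
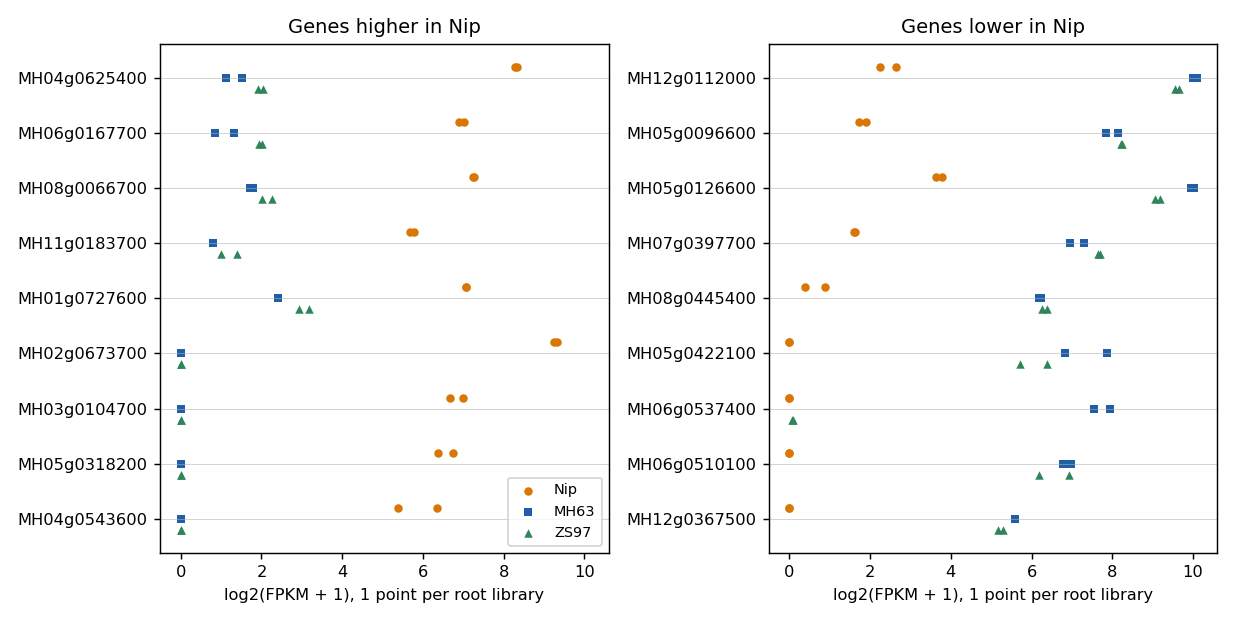
Expression of 9 genes higher in Nip (left) and 9 genes lower in Nip (right) in log2(FPKM + 1), with 1 point for each of the 6 root libraries. For the genes of the left panel both Nip points lie to the right of all 4 Xian points, and for those of the right panel to the left, with the ZS97 points of MH06g0537400 next to the Nip points.

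Among the 6 named for their abundance in root, the parents were called different for 2, MH07g0030800 and MH07g0283900, both higher in Nip. MH07g0030800 was at 1739 and 1742 FPKM in Nip, 1398 and 1467 FPKM in MH63 and 150 and 144 FPKM in ZS97. Its difference from the Xian mean was 1.92 ± 0.06 (adjusted p = 9.75e-06, limma), but the difference from MH63 was 0.28 and that from ZS97 3.56, and with the Xian libraries as 1 group the adjusted p was 0.241 (limma). The gene was high in Nip and MH63 and low in ZS97 only. MH07g0283900 was at 1363 and 1292 FPKM in Nip, 10.3 and 14.9 FPKM in MH63 and 342 and 332 FPKM in ZS97 (difference 4.30 ± 0.14, adjusted p = 1.13e-05, and 0.0891 with the Xian libraries as 1 group, limma). MH04g0572500 was at 1339.6 and 1415 FPKM in Nip, 426 and 392.2 FPKM in MH63 and 197 and 215 FPKM in ZS97 (difference 2.24 ± 0.07, adjusted p = 1.06e-05, limma). In both genes the libraries of the 3 varieties did not overlap, with Nip the highest, but the parents were not called different for MH04g0572500. In the lower direction, MH02g0384700 was at 115 and 123 FPKM in Nip, 1741 and 1037 FPKM in MH63 and 780.4 and 792 FPKM in ZS97 (difference -3.10 ± 0.20, adjusted p = 0.000106, limma). MH01g0814400 was at 279 and 249 FPKM in Nip, 1467 and 1074 FPKM in MH63 and 958 and 914 FPKM in ZS97 (difference -2.04 ± 0.13, adjusted p = 0.000115, limma). For both genes the MH63 replicates were further apart than those of the other varieties, and the 4 Xian libraries still lay well above Nip.

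The parents were then compared with each other in the same fit, to place the difference from Nip beside the variation within Xian. Between ZS97 and MH63, 931 genes (4.47%) were called, 300 (1.44%) higher and 631 (3.03%) lower in ZS97. Nip differed from MH63 in 2377 genes (11.4%), 658 (3.16%) higher and 1719 (8.26%) lower, and from ZS97 in 2009 genes (9.65%), 731 (3.51%) higher and 1278 (6.14%) lower. The last 2 comparisons share the Nip libraries and are given side by side only. The values of ZS97, like those of Nip, are given for MH63 gene models. The Nip libraries may also come from another joint run of the quantification. The part of either in these shares was not tested. Of the 1922 genes called between Nip and the Xian mean, 1303 passed against each parent in the same direction, 431 higher and 872 lower in Nip. The parents themselves were called different for 314 of the 1922 genes (16.3%), beside 4.47% of all genes tested. Both comparisons rest on the same 4 Xian libraries, so a gene that is high or low in 1 parent alone can be called in both. The 16.3% is therefore given as a description. MH07g0030800, MH07g0283900 and MH06g0537400 were among these 314, while the parents were not called different for the other 26 named genes that were called in Nip.

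The share of called genes was described by how widely a gene was expressed outside the root. Breadth was taken from the 9 means of the 3 varieties in young leaf, panicle and mature leaf. A gene that is low in 1 variety in those tissues cannot be above 1 FPKM in all 9 means, so differences between varieties that extend beyond the root take part in the split, and the shares are given as a description. Of 11932 genes above 1 FPKM in all 9 means, 426 (3.57%) were called, 89 higher and 337 lower in Nip. Of 7666 genes above 1 FPKM in some but not all of the means, 1306 (17%) were called, 409 higher and 897 lower. Of 1213 genes above 1 FPKM in root and in none of the other means, 190 (15.7%) were called, 85 of them higher in Nip and the rest lower. In this last group the order turned, with 95 of 200 called genes lower by the median of ratios and 79 of 204 by quantile normalization, so no direction is given for it. The share was below the 9.24% of all genes tested for the genes above 1 FPKM in all 9 means and above it for the other groups. Between the parents, 0.872%, 9.31% and 9.32% of the 3 groups were called. The groups also differed in level, with a median root expression of 16.2, 3.21 and 2.06 FPKM, and the part of the level in these shares was not tested.

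By the first part of the identifier, and leaving out MHUN with 3 genes tested and 1 called, the share of called genes was between 7.26% (MH03) and 12.6% (MH11 and MH12). MH11 held 149 called genes of 1183, 51 higher and 98 lower in Nip, and MH12 held 143 of 1131, 42 higher and 101 lower. MH10 followed with 11.6% and MH07 with 10.7%, and MH02 was, with 7.35%, near the low end. Between the parents, the share was 9.89% for MH11 and 5.31% for MH12, beside 4.47% of all genes. Both identifier groups thus had a high share for Nip, whereas between the parents MH11 stood further from the share of all genes than MH12. Median root expression was 5.15 FPKM for MH11, the lowest of the 12 groups, and 7.96 FPKM for MH12, beside 8.82 FPKM for all genes tested. The part of the level in these shares was not tested. More genes were lower than higher in Nip in each of the 12 identifier groups, apart from MH08 under quantile normalization, where 62 were higher and 50 lower.

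**Figure D3:**
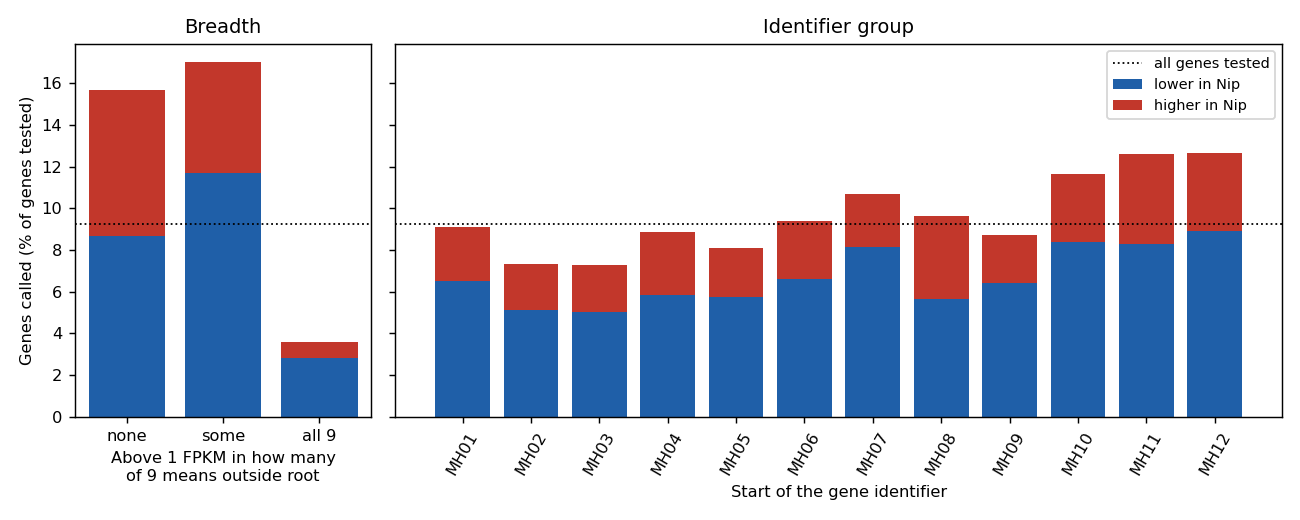
Percentage of the genes tested that were called between Nip and the Xian parents in root, by breadth of expression outside the root (left) and by the start of the identifier (right), split into genes lower (blue) and higher (red) in Nip. The dotted line is the 9.24% of all genes tested. Genes above 1 FPKM in all 9 means outside the root reach 3.57%, and MH11 and MH12 reach 12.6%.

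Genes that differed were in part next to each other. Of the 1922 called genes, 491 (25.5%) were in 216 runs of at least 2 genes that were neighbours by identifier among the genes tested and were called in the same direction. There were 37 runs of 3 genes, 5 runs of 4 and 4 runs of 5, the longest. No share expected for neighbours was computed to set beside the 25.5%, so it is given as a description only. Of all genes tested, 2.80% were called higher and 6.43% lower in Nip. Neighbouring genes can be copies of one another that share reads, and how the reads were divided among copies is not given in the sources used here, so the values within a run may not be separate measurements.

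The run from MH01g0425100 to MH01g0428100 held 5 genes, all lower in Nip, with differences from -2.88 to -4.07. Their FPKM was between 0 and 3.04 in Nip, between 10.5 and 28.3 in MH63 and between 10.2 and 34.4 in ZS97. For each of the 5 genes the Nip libraries lay below all Xian libraries, and the parents were called different for none of them. MH01g0425100 was still higher in MH63 (25.1 and 19.4 FPKM) than in ZS97 (12.1 and 10.2 FPKM). The run spans 31 listed identifiers, of which the others were below the level tested, and 4, 2 and 4 of its genes were also called lower in young leaf, panicle and mature leaf. The run from MH12g0367800 to MH12g0368200 covered 5 consecutive identifiers, lower in Nip by differences from -1.74 to -3.44, with 0 to 1.01 FPKM in Nip, 1.15 to 8.81 FPKM in MH63 and 4.22 to 12.9 FPKM in ZS97. None of these 5 genes was called the same way in another tissue, where a gene too low to be tested also counts as not called. After quantile normalization, 4 of them were still called in root. MH12g0367500, the gene listed at 0 in Nip root above, lies 3 identifiers before this run and was likewise not called in young leaf. Its difference there was -1.91, and it was too low to be tested in panicle and mature leaf.

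The run from MH11g0083100 to MH11g0083700 held 5 genes lower in Nip, with differences from -1.76 to -3.05 and with 0 to 10.4 FPKM in Nip, 2.55 to 48.9 FPKM in MH63 and 0.584 to 83.7 FPKM in ZS97. Its highest member, MH11g0083700, was at 10.0 and 10.4 FPKM in Nip, 45.4 and 48.9 FPKM in MH63 and 80.8 and 83.7 FPKM in ZS97, whereas MH11g0083100, MH11g0083500 and MH11g0083600 were listed at 0 in both Nip libraries. MH11g0083200 was at 0.175 and 0.166 FPKM in Nip, so the run held genes at a range of levels in Nip, from listed at 0 to about 10 FPKM. The run from MH11g0647700 to MH11g0648700 was the only one of the 4 that was higher in Nip, with differences from 1.55 to 3.97. MH11g0648200 was at 14.2 and 15 FPKM in Nip and at 0 in all 4 Xian root libraries. MH11g0647700 was at 8.13 and 8.24 FPKM in Nip and at 6.50 and 6.69 FPKM in MH63, and was listed at 0 in ZS97. The latter gene therefore separated ZS97 from the other varieties more than Nip from Xian.

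Among the runs of 4 genes, MH05g0047400 to MH05g0047700 held the largest differences, from -2.77 to -5.99. MH05g0047700 was at 3.18 and 0 FPKM in Nip, 208 and 144 FPKM in MH63 and 106 and 87.3 FPKM in ZS97 (difference -5.99 ± 0.55, adjusted p = 0.000375, limma), and MH05g0047600 was listed at 0 in Nip, at 69.8 and 54.5 FPKM in MH63 and at 12.9 and 17.3 FPKM in ZS97. All 4 genes of the run were well below both parents in Nip. MH11g0601900 to MH11g0602200 was of another kind, since its 4 genes were between 4.61 and 44.5 FPKM in MH63, between 0 and 0.332 FPKM in ZS97 and between 0 and 0.0163 FPKM in Nip. These genes were above 1 FPKM in MH63 alone and were called against the Xian mean through MH63, and the parents were called different for all 4. After either rescaling, 3 of the 4 remained called.

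**Figure D4:**
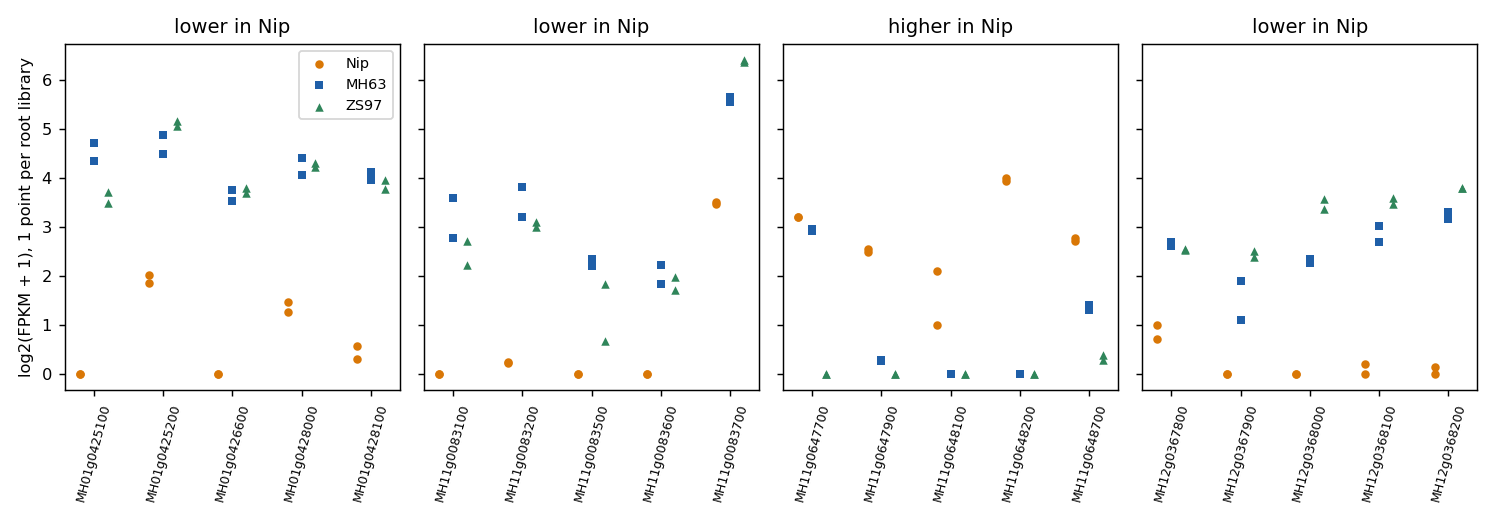
Root expression in log2(FPKM + 1) of the genes in the 4 longest runs of neighbouring called genes, with 1 point for each library of Nip, MH63 and ZS97. In 3 runs the Nip points lie below the Xian points for all genes, and in the run that starts at MH11g0647700 they lie above, by little over MH63 for its first gene.

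The root differences were then looked up in the other tissues, where separate libraries were tested in the same way. In young leaf, 2617 of 21862 genes (12%) were called between Nip and the Xian parents, 831 (3.80%) higher and 1786 (8.17%) lower. In panicle these were 1400 of 20591 (6.80%), 682 (3.31%) higher and 718 (3.49%) lower, and in mature leaf 1685 of 19169 (8.79%), 760 (3.96%) higher and 925 (4.83%) lower. Of the genes higher in Nip root that were tested in the other tissue, 208 of 442 (47.1%) were also called higher in young leaf, 208 of 415 (50.1%) in panicle and 201 of 406 (49.5%) in mature leaf. Of the genes lower in Nip root, 471 of 1198 (39.3%) were also called lower in young leaf, 370 of 1007 (36.7%) in panicle and 382 of 1043 (36.6%) in mature leaf. These shares were several times those of all genes tested in the same direction. Calls in the opposite direction covered 24, 3 and 2 of the genes higher in root, or 5.43%, 0.723% and 0.493% of those tested. For genes lower in root these were 21, 31 and 11, or 1.75%, 3.08% and 1.05%. In panicle the 3.08% was near the 3.31% of all genes tested that were higher, and the other shares were further below theirs. In all 3 other tissues, 366 of the 1922 genes were called the same way as in root, 131 higher and 235 lower. Of the genes called in root, 326 of the 583 higher and 888 of the 1339 lower were tested in all 3. The share of all genes called the same way in these 3 tissues was not counted. Of the 1922 genes, 1031 were called the same way in none of the 3, of which 190 were tested in none.

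**Figure D5:**
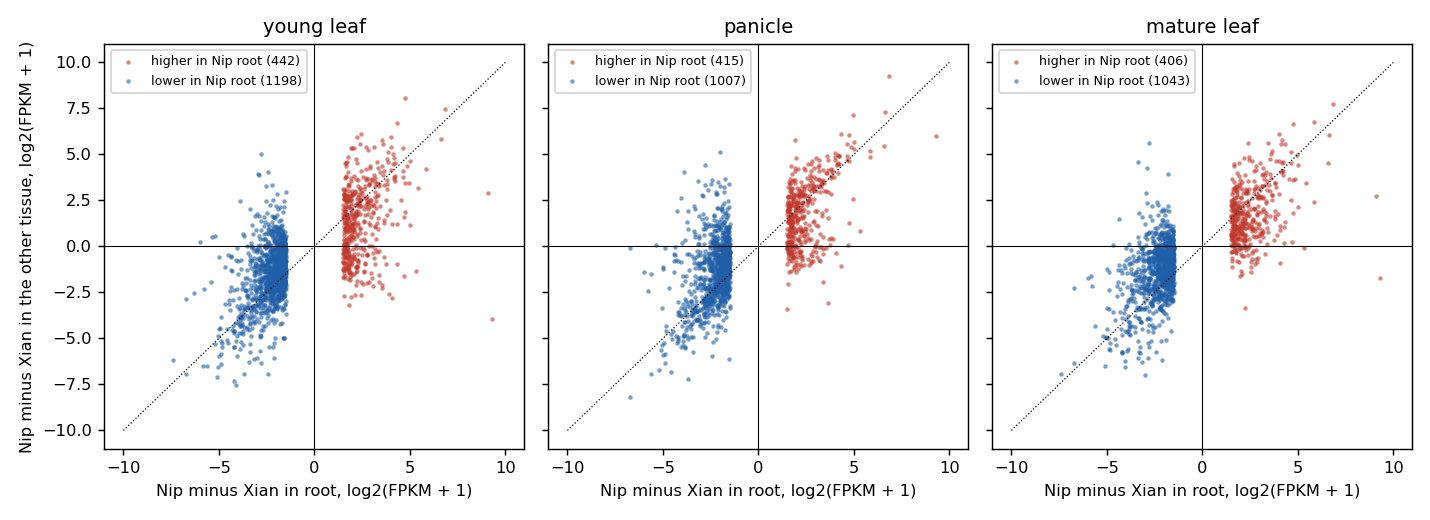
Nip minus Xian difference in log2(FPKM + 1) in young leaf, panicle and mature leaf (vertical axes) against that in root (horizontal axes) for genes called in root, with the number tested in each tissue in the key. The dotted line marks equal differences. Most points lie in the lower left and upper right, and the gap in the middle of each panel comes from the threshold of 1.5 in root.

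Genes called the same way in all 4 tissues included MH04g0625400, higher in Nip, with differences of 5.83 in young leaf, 7.30 in panicle and 6.06 in mature leaf beside 6.65 in root. MH03g0104700 (7.44, 9.26 and 7.74 beside 6.84 in root) and MH11g0183700 (8.07, 6.03 and 6.65 beside 4.73 in root) were higher in Nip throughout as well. Both had a smaller difference in root than in the other tissues. In the lower direction, MH08g0279800 was at 0.116 and 0 FPKM in Nip root, 24.8 and 35.5 FPKM in MH63 root and 40.7 and 38.6 FPKM in ZS97 root, with differences of -5.06 in root, -4.89 in young leaf, -5.36 in panicle and -4.90 in mature leaf. MH12g0023000 was at 0.181 and 0.349 FPKM in Nip root, 34.1 and 33.2 FPKM in MH63 root and 39.7 and 38.3 FPKM in ZS97 root, with differences of -4.88, -5.14, -5.85 and -5.58 in the same order. MH05g0422100 was at 0 in all 8 Nip libraries, with differences of -6.70, -6.94, -8.19 and -6.33. All 3 genes were expressed in every tissue of both Xian parents and at or near 0 in the Nip libraries.

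Whether a root difference was of another size than in the other tissues was tested in 1 fit of all 24 libraries, as the root difference minus the mean difference of young leaf, panicle and mature leaf. Over 25873 genes, 1303 (5.04%) were called, 551 (2.13%) with a more positive and 752 (2.91%) with a more negative difference in root. Of the 1922 genes called in root, 719 (37.4%) were among them, 275 of the 583 higher and 444 of the 1339 lower genes, and these shares rest in part on the same root libraries that chose the genes. For 689 of the 719, the interaction had the same sign as the root difference, an agreement that choosing genes by their root difference favours.

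Some of these genes were well expressed elsewhere in all varieties and differed in root. Those named for this, in either direction, were chosen for a called interaction and a difference under 0.5 in at least 1 other tissue. Their small differences there and their called interactions follow from that rule. MH08g0066700, at 151.04 and 151.59 FPKM in Nip root against 2.31 to 3.82 FPKM in Xian root, was at 439 and 446 FPKM in Nip mature leaf and between 393 and 667 FPKM in Xian mature leaf (difference -0.07). Its interaction was 5.49 ± 0.63 (adjusted p = 1.59e-05, limma). MH06g0708800 was at 26.6 and 26.4 FPKM in Nip root and at or below 0.143 FPKM in all 4 Xian root libraries (difference 4.68 ± 0.11, adjusted p = 7.20e-06, limma), while its differences were 0.06 in panicle and 0.26 in mature leaf. Both genes were thus low in root of Xian and expressed there in Nip, and not called in panicle or mature leaf. MH01g0685600 was at 42.3 and 49.0 FPKM in Nip root, 1.67 and 1.50 FPKM in MH63 root and 1.93 and 2.11 FPKM in ZS97 root (difference 4.06 ± 0.10, adjusted p = 7.24e-06, limma). In young leaf it was at 1.19 and 1.06 FPKM in Nip and between 11.2 and 15.99 FPKM in the Xian parents (difference -2.78 ± 0.22, adjusted p = 0.00195, limma). MH06g0708800 was lower in Nip young leaf as well (difference -1.59 ± 0.35, adjusted p = 0.0259, limma), so the direction of both genes in young leaf was opposite to that in root.

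In the lower direction, MH06g0510100, listed at 0 in both Nip root libraries, was at 36.5 and 81.9 FPKM in Nip young leaf and 81.8 and 38.3 FPKM in Nip panicle. In young leaf it was also called lower in Nip (difference -2.86, adjusted p = 0.00888, limma). Its difference was -2.25 in mature leaf, where it was not called. In panicle the difference was -0.10, and the Xian replicates spread there from 5.19 to 421 FPKM. Its interaction was -4.98 ± 1.67 (adjusted p = 0.0422, limma). MH10g0389700 was below 0.0001 FPKM in both Nip root libraries, 27.3 and 30.4 FPKM in MH63 root and 28.2 and 29.9 FPKM in ZS97 root (difference -4.90 ± 0.08, adjusted p = 3.60e-06, limma). In panicle, where the difference was -0.06, it was at 21.98 and 20.6 FPKM in Nip and between 18.3 and 26.2 FPKM in the Xian parents. This gene was at a like level in the panicles of all 3 varieties, and in young leaf it was below 0.0001 FPKM in both Nip libraries and between 51.6 and 68.3 FPKM in the Xian parents. MH05g0047700, low in Nip root, was at 141 and 180.1 FPKM in Nip young leaf and between 88.6 and 215 FPKM in Xian young leaf, and overlapped there. In mature leaf MH05g0047700 was called lower in Nip (difference -1.72, adjusted p = 0.0027, limma). It was there listed at 0 in Nip and MH63 and at 11.4 and 8.50 FPKM in ZS97.

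Genes that the study shows as examples in its panels on promoters and enhancer-like promoters were looked up whatever their values. None of these 5 genes was called between Nip and the Xian parents in root. MH07g0100900 was at 61.2 and 58.3 FPKM in Nip, 54.7 and 55.9 FPKM in MH63 and 70.6 and 62.9 FPKM in ZS97 (difference -0.02 ± 0.07, adjusted p = 0.785, limma). Both Nip libraries lay between those of MH63 and those of ZS97, and the sign of the difference turned with the scaling or when 1 library was left out. MH01g0656400 was at 41.0 and 38.8 FPKM in Nip, 29.8 and 29.2 FPKM in MH63 and 35.7 and 37.7 FPKM in ZS97 (difference 0.27 ± 0.06, adjusted p = 0.00954, limma), which was below the threshold on size. MH02g0167000 was at 1.11 and 1.32 FPKM in Nip, 2.85 and 3.02 FPKM in MH63 and 1.98 and 2.39 FPKM in ZS97 (difference -0.68 ± 0.12, adjusted p = 0.00430, limma). It was lowest in Nip, again within the threshold on size.

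The other panel genes differed between the parents. MH08g0085800 was at 19.6 and 27.4 FPKM in Nip, 29.1 and 27.9 FPKM in MH63 and 6.48 and 6.62 FPKM in ZS97, with a ZS97 minus MH63 difference of -1.97 ± 0.15 (adjusted p = 0.000610, limma). MH03g0187000 was at 1.44 and 1.38 FPKM in Nip, 6.48 and 5.98 FPKM in MH63 and 0.0705 and 0 FPKM in ZS97, with a ZS97 minus MH63 difference of -2.80 ± 0.13 (adjusted p = 8.83e-05, limma). Nip was near MH63 for the former gene and between the parents for the latter. The difference between Nip and the Xian mean was 0.70 ± 0.13 (adjusted p = 0.00606, limma) for MH08g0085800 and -0.18 ± 0.11 (adjusted p = 0.201, limma) for MH03g0187000, whose sign turned under a smaller pseudocount and under quantile normalization.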

How the data were processed

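The deposited values are FPKM per MH63 gene identifier. The authors trimmed reads with Trimmomatic (0.36), mapped them with TopHat2 (2.1.0) to the MH63 or ZS97 genome and quantified genes with Cufflinks (2.2.1 in the methods, 2.2.5 in the submitters' processing notes). FPKM carries no read numbers, so intervals and floors from counting are not possible, and precision rests on 2 libraries per variety. The 34 libraries of 17 other varieties use other identifiers and were not used.

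Genes entered the test when their mean exceeded 1 FPKM in 1 variety or more. The tool was limma (version 3.58.1 in R 4.3.3), fitted to log2(FPKM + 1) with 1 mean per variety and a trend, two-sided. Calls needed an adjusted p below 0.05 and a difference above 1.5, the cutoffs of the study. The interaction used all 24 libraries. Counts and figures were made in Python (3.11.15). The fit was tested on simulated data.

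Named genes were called, did not overlap between Nip and Xian and reached a mean of 10 FPKM in the higher group. In each direction they were the 5 largest differences and the 3 most abundant genes above 0.1 FPKM in all 6 libraries, the 4 most abundant at 0 in the lower group, the 3 largest with a called interaction and a difference under 0.5 in another tissue where both groups reached 10 FPKM, and the 3 with the largest smallest difference over 4 tissues. The 5 genes of the study's panels on promoters and enhancer-like promoters and the longest runs were added, with 4 runs of 5 genes named in place of 3 because of a tie. The members and lists were chosen with earlier results of these data known. Symbols are left out because no table used here links them to MH63 identifiers. Alternatives were another pseudocount, filters, scalings, a replicate block, a fit of 24 libraries, a fit of 2 groups and leaving out each library.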

Additional observations from a re-analysis of the deposited data

Results flagged for a closer look

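Of all genes tested, 5.04% had a called interaction. For 18 of the named genes, of which 6 (MH08g0066700, MH06g0708800, MH01g0685600, MH06g0510100, MH05g0047700 and MH10g0389700) were named by a rule that asked for a called interaction and the others for root values that enter it, the Nip minus Xian difference in root differed from the mean difference in young leaf, panicle and mature leaf by the interaction test (limma, adjusted p below 0.05 and a size above 1.5, log2 scale). The interaction was positive, with a higher relative level in Nip root than the other tissues would give, for MH02g0673700 (9.16), MH08g0066700 (5.49), MH06g0708800 (5.10), MH01g0727600 (4.97), MH01g0685600 (4.8), MH07g0283900 (3.42), MH06g0167700 (3.06) and MH04g0572500 (2.09). It was negative for MH05g0096600 (-5.31), MH05g0047700 (-5.03), MH06g0510100 (-4.98), MH12g0367500 (-4.74), MH07g0397700 (-3.50), MH05g0126600 (-3.20), MH12g0112000 (-3.03), MH02g0384700 (-2.59) and MH10g0389700 (-2.47). MH11g0183700 stood apart with an interaction of -2.19 although it was higher in Nip in root, since its difference was larger in the other tissues. For MH02g0673700 the SE of the interaction was 2.29, and 1 of the 2 Nip young leaf libraries was listed at 0. In several of these genes the small difference elsewhere went with low expression there. MH05g0096600 was listed at 0 in all 6 mature leaf libraries, and MH12g0112000 in all 6 panicle libraries.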

How the results depend on the processing

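The 29 named genes that were called were chosen as called and not overlapping in these same root libraries, which favours agreement under the alternatives. Their directions all held under each of 14 alternatives, and 403 of their 406 values stayed called. The 3 that lost the call, MH07g0030800 (1.92), MH07g0283900 (4.30) and MH06g0537400 (-3.91), did so with the 4 Xian libraries as 1 group, a fit that counts the difference between the parents as spread. Among genes not called, MH07g0100900 turned to 0.14 by the median of ratios, 0.02 without ZS97 root replicate 1 and 0.01 without Nip root replicate 2 (-0.06 to 0.02 over the libraries left out), and MH03g0187000 to 0.73 with a pseudocount of 0.1 and 0.13 by quantile normalization.

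Counts of calls moved by over 1.5 times with the pseudocount of 0.1 and with no other alternative. With it, 3725 genes were called between Nip and Xian in root, 1087 higher and 2638 lower, 2403 against each parent, 1584 between the parents, 2687 by the interaction and 660 the same way in all 4 tissues, since a smaller pseudocount widens the differences of low genes. Leaving out 1 library gave 1898 to 1974 genes between Nip and Xian, 589 to 658 of them higher and 1300 to 1337 lower, 1256 to 1331 against each parent, 894 to 1006 between the parents, 1216 to 1260 by the interaction and 351 to 367 in all 4 tissues. The replicate block gave 1930 genes, 1298 against each parent, 932 between the parents, 1302 by the interaction and 363 in all 4 tissues. The replicate numbers did not pair the libraries, as the correlations of same-numbered deviations were -0.058, -0.015 and -0.026. Without a filter 1891 genes were called, with a mean above 5 FPKM 1576, in 1 fit of 24 libraries 1794 and with 2 groups 1617.

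Depth limits low values most, and the Nip root libraries were the shallowest by estimate, at 0.667 and 0.693 of MH63 root replicate 1. The estimate comes from low FPKM values, so it cannot tell read number from the scaling of the values.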
